A study of Mus musculus with 10 samples.

Results

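The stretch of a gene from 1500 to 5000 bp downstream of its start site, beyond the promoter and for most of its windows still within the first intron, was examined in Methyl-seq data from mouse lung. Members were the windows of 1000 bp, laid every 500 bp on chromosomes 1 to 19, that lay inside a RefSeq transcript with their midpoint in that range, overlapped no region within 1000 bp of any transcript's start site, and had at least 20 CpG methylation calls in each of the 10 mice. Of 446336 windows in the table, 31421 (7.04%) met this rule, in 10428 genes. A further 1372 windows met the rule on position and fell short on calls. The rule used no methylation level.

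The samples were whole lung of young adult female BALB/c mice in 3 groups. Saline-treated mice (n = 3) received neither the allergen nor the extract. OVA-induced mice (n = 3) were sensitized by injection of ovalbumin (OVA) with alum and then challenged with OVA through the nose, the usual mouse model of allergic asthma. DSE-treated mice (n = 4, labelled Herb) went through the same OVA protocol and were also given an ethanol extract of Descurainia sophia seeds (DSE) by mouth. No group received DSE without OVA, so its effect on mice without allergy was not measured. DNA was enriched with SureSelect Methyl-seq probes, converted with bisulfite and sequenced, and a methylation level is the percentage of calls at the CpGs of a window that read as methylated.

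In mammals CpG methylation is low at most promoters and rises into the gene body, where DNA methyltransferases follow the histone marks left by transcription. The first kilobases past the promoter are a zone of transition. They often hold the far shore of a CpG island and, in the first intron, enhancers, which lose methylation in the cell types that use them. Some developmental transcription factor genes keep low methylation across broad domains that run well past the start site, where Polycomb proteins hold them silent.

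The sequences below show what such windows look like at the extremes described in the results. Each is the 200 bases of a window with the most CpGs, from the GRCm38 (mm10) reference, written 5′ to 3′ on the strand of the gene with CpGs in capitals. BALB/c mice can differ from this reference. The first pair comes from genes that stayed almost unmethylated 1500 to 5000 bp past the start site.
Pax6, chr2:105686617-105686816, plus strand: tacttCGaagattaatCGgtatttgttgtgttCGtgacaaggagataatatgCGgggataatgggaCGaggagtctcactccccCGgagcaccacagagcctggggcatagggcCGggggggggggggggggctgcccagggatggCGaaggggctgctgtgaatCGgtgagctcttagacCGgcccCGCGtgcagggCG
Pax2, chr19:44759001-44759200, plus strand: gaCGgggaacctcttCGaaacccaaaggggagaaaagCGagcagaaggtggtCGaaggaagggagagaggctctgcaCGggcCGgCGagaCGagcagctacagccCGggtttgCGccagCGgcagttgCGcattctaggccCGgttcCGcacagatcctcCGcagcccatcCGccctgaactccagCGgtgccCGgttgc

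The next sequences come from windows that were hyper methylated (the first pair) and hypo methylated (the second pair) in OVA-induced vs. saline-treated mice.
Prxl2a, chr14:41004279-41004478, minus strand: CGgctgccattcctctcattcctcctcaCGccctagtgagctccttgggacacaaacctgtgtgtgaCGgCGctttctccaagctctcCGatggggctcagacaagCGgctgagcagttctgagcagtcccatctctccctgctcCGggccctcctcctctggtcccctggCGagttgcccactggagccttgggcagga
Glis2, chr16:4597239-4597438, plus strand: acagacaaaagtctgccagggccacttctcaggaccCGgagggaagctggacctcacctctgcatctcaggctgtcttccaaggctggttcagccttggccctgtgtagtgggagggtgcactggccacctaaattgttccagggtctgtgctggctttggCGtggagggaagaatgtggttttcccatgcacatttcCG
Trdmt1, chr2:13540001-13540200, minus strand: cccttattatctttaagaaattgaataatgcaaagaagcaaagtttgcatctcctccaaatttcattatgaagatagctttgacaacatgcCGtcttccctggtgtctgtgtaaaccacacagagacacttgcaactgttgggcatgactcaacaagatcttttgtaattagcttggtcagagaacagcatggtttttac
Arhgap25, chr6:87531130-87531329, minus strand: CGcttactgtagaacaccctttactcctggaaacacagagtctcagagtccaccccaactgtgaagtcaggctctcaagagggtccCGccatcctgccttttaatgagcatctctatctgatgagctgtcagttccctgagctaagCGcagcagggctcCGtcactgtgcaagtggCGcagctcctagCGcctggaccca

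The next come from windows that were hyper methylated (the first pair) and hypo methylated (the second pair) in DSE-treated vs. OVA-induced mice.
Arid1a, chr4:133750184-133750383, minus strand: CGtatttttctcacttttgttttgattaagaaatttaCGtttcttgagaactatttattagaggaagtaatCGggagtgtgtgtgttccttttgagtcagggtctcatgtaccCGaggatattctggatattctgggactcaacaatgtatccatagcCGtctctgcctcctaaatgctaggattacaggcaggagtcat
Gm30933, chr9:30422523-30422722, minus strand: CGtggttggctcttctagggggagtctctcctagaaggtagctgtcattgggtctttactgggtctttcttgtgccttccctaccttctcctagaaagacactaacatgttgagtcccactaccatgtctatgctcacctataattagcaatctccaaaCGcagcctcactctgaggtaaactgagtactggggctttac
Pdk1, chr2:71878001-71878200, plus strand: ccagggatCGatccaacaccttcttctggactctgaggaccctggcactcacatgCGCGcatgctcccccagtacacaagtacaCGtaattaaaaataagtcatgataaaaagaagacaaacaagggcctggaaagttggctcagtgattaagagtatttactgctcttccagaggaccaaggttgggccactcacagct
Gm15543, chr6:145187295-145187494, plus strand: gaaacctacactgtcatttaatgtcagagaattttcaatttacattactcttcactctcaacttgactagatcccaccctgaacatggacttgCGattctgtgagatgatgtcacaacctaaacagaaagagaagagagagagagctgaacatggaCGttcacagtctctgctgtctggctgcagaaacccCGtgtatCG

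The last pair comes from a leukocyte gene that lost methylation and an endothelial gene that gained it in OVA-induced mice. These 2 genes were chosen for printing after their values were seen.
Ikzf1, chr11:11688455-11688654, plus strand: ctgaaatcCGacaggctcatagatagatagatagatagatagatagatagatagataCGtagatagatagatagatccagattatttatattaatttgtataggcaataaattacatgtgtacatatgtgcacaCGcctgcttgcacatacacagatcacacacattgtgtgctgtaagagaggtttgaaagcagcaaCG
Kdr, chr5:75975235-75975434, minus strand: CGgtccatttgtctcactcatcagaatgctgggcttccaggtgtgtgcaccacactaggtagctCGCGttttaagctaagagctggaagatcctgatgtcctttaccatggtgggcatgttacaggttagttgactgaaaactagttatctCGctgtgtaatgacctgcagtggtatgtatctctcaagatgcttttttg
The 200 bases held 13 CpGs in Pax6 and 18 in Pax2, against 1 in Trdmt1 and 2 in Gm30933.

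The libraries held between 306656737 and 410836272 calls over all windows, and the median window of this set held 424 to 623 calls per mouse. At the overall median of 508 calls, counting error alone leaves a level of 50% with a 95% Wilson interval of 45.7 to 54.3%, and at the minimum of 20 calls 29.9 to 70.1%. Calls from 1 read are not independent, so such intervals cover counting error only. Mitochondrial CpGs, taken as unmethylated, read as methylated at 1.33 to 1.85%. The DSE libraries stood apart in where their calls fell. Call counts were normalised to 1000000 calls per library. In windows under 40% GC, the median window had 1.07 ± 0.0984 normalised calls in DSE-treated mice (SD, n = 4), 0.576 ± 0.0487 in OVA-induced mice (n = 3) and 0.745 ± 0.00953 in saline-treated mice (n = 3), with no overlap between groups. In windows over 55% GC the order was turned around, at 3.00 ± 0.0818, 3.35 ± 0.0196 and 3.12 ± 0.0182.

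Methylation in these gene-body windows lay between that of start sites and that of the rest of the gene. In saline-treated mice the mean over windows was 54.1% ± 0.321 (SD, n = 3), against 22.5% ± 0.146 in windows that overlap the 1000 bp on either side of a start site, 61.6% ± 0.331 in all other gene-body windows and 55.7% ± 0.300 in intergenic windows. Within the set, 17.1% of windows were below 20% methylation, 60.4% were between 20 and 80%, and 22.5% were above 80%. The 3 saline-treated mice had means of 54.4, 53.8 and 54.1%.

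Most of the rise happened close to the start site. In saline-treated mice the mean was 48.0% ± 0.304 (SD, n = 3) in windows centred 1500 to 2000 bp past the start site, 53.5% ± 0.287 at 2000 to 2500 bp, 55.7% ± 0.293 at 2500 to 3000 bp and 58.2% ± 0.416 at 4500 to 5000 bp. The share of windows below 20% fell from 24.2% in the nearest bin to 12.2% in the farthest. Windows centred beyond 4000 bp exceeded those within 2500 bp by 7.65 points under saline, 7.74 under OVA and 7.66 under OVA with DSE.

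**Figure D1:**
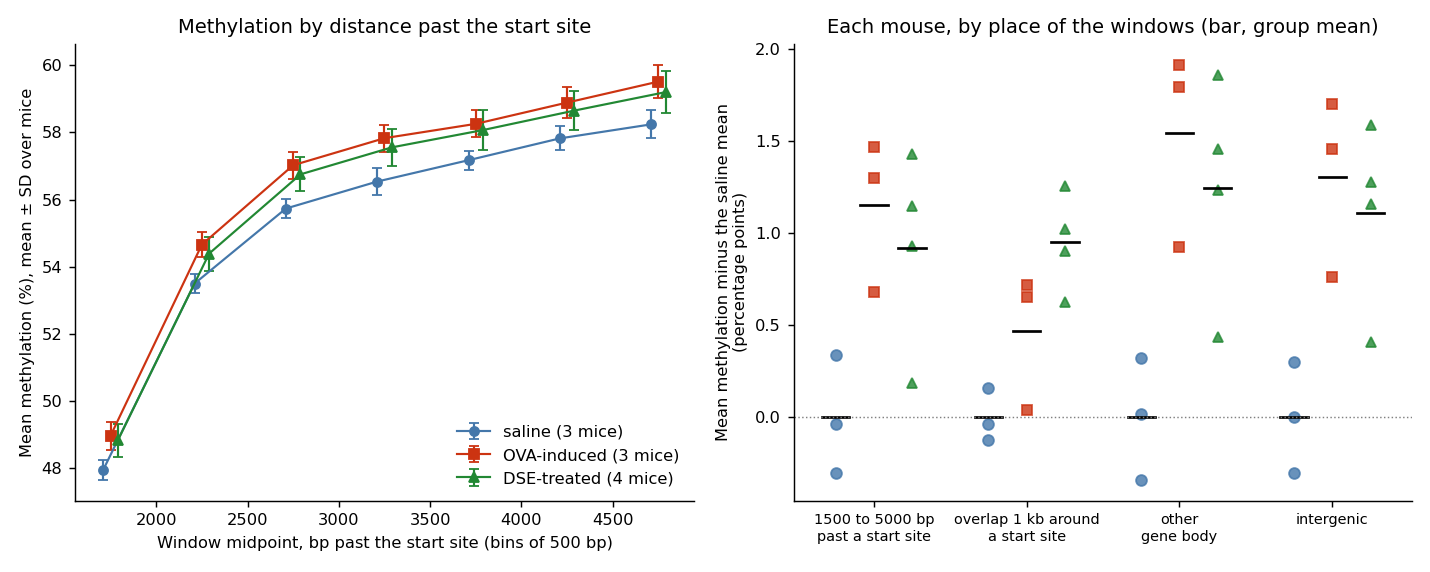
Left, mean methylation (%, mean ± SD over mice) of gene-body windows by the distance of their midpoint past the start site in bins of 500 bp, for each treatment group. Levels climbed steeply over the first bins, from 48.0 to 53.5% in saline-treated mice, and slowly after. Right, each mouse's mean minus the mean of the saline-treated mice, in percentage points, by place of the windows, with a bar at each group mean. All OVA-induced mice lay above all saline-treated mice in the windows 1500 to 5000 bp past a start site.

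CpG density went with the level. The 1650 windows with more than 40 CpGs averaged 18.4% ± 0.343 in saline-treated mice (n = 3), and 74.2% of them were below 20%. The 2056 windows with 1 to 5 CpGs averaged 58.0% ± 0.308. Windows with over 50% of their bases masked as repeats (993) averaged 67.7% ± 0.466. Exon content went with little difference, at 55.4% ± 0.312 in the 10466 windows that overlap an exon and 53.4% ± 0.327 in the 20955 that lie in introns only. A total of 17279 windows (54.99%) lay in intron 1.

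A minority of windows carried almost no methylation this far past the promoter. In saline-treated mice 3348 windows (10.7%), in 1773 genes, averaged below 10%. Their median CpG count was 26, against 13 over the whole set. The genes with the most such windows were mainly developmental regulators. Pax6, the transcription factor of eye and pancreas development, had 16 of its 16 windows below 10%, with means of 7.16, 6.69 and 6.25% in the saline-treated mice, 5.94, 7.42 and 7.01% in the OVA-induced mice and 6.72, 7.17, 7.59 and 7.51% in the DSE-treated mice. The groups overlapped. Pax2, which acts in kidney development, had 11 of 13 windows below 10% and a mean over its windows of 4.42% ± 0.535 in saline-treated mice.

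Other genes of this kind were the neuropeptide gene Adcyap1 (7 of 7 windows, 2.59% ± 0.272), the homeobox gene Hmx2 (7 of 8, 5.52% ± 0.408) and Islr2, a neuronal membrane protein gene (7 of 7, 3.30% ± 0.324). Bahcc1, which encodes a chromatin protein that binds a Polycomb mark, was the lowest, at 1.128% ± 0.264 over 7 of 7 windows with a median of 88 CpGs each. Irf2bp2, which encodes a transcriptional cofactor, had 7 of 7 windows below 10% too. Its mean was 2.39, 1.90 and 3.41% in the saline-treated mice, 1.61, 1.66 and 1.51% in the OVA-induced mice and 1.85, 1.67, 2.34 and 1.45% in the DSE-treated mice. Such values are close to the rate at which mitochondrial CpGs read as methylated.

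The 88 developmental transcription factor genes listed for this work behaved likewise as a group. Their 366 windows, in 81 genes, averaged 11.9% ± 0.309 under saline, 12.7% ± 0.349 under OVA and 12.9% ± 0.453 under OVA with DSE.

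OVA vs. saline asked what allergic inflammation did to these regions. OVA-induced mice had a higher mean, with 54.8, 55.4 and 55.6% in the 3 mice against 53.8 to 54.4% in saline-treated mice. The groups did not overlap and the difference was 1.15 points, with an exact permutation test p of 0.1, the smallest that 3 against 3 mice can give. From pooled calls, which weight windows by their calls, the difference was 0.691 points (exact permutation p = 0.3), and the groups overlapped, with saline-treated mice at 44.9 to 45.7% and OVA-induced mice at 45.1 to 46.7%. Of the 21 single values tested in this way over all comparisons, none had an adjusted p (Benjamini-Hochberg) below 0.21. The gain was 0.680 points larger in these windows than at start sites (exact permutation p = 0.1) and differed from that in the rest of the gene body by -0.394 points. Since whole lung was sampled, a shift in the share of a cell type and a change within cells cannot be told apart in these or the following differences.

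By window, 1731 (5.51%) were hyper methylated and 1004 (3.20%) hypo methylated in OVA-induced mice, in 1059 and 625 genes, with 31 genes in both lists. A window was called when the pooled calls of the groups differed by at least 10 percentage points with an adjusted p below 0.01 in a likelihood ratio test of a logistic model. That test ignores the spread between mice. Over all windows tested the same rule called 4.75% hyper and 2.56% hypo methylated, close to the shares in the windows past start sites. That background includes the start sites, where 2.21% were hyper methylated. In the rest of the gene body 6.08% were hyper and 3.04% hypo methylated. With limma, which uses the spread between mice, 728 were hyper and 497 hypo methylated, or 2.32 and 1.58%, against a background of 1.76 and 1.18% and against 2.24 and 1.43% in the rest of the gene body. With an F test that scales each window by its own spread, 0 windows passed in either direction at an adjusted p below 0.01. The limma threshold was 0.05. An unadjusted p below 0.05 was found in 5966 of 31421 windows by the F test and in 8021 by limma.

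Nearly all called windows were partly methylated in the DSE-treated mice, a group outside this comparison. Of windows between 20 and 80% in those mice, 1683 of 19578 were hyper and 983 hypo methylated. Of windows at or below 20%, 25 of 4932 were hyper and 11 hypo methylated. The DSE-treated mice also received OVA, so a change they shared with the OVA-induced mice can move a window between these level classes. Windows of over 40 CpGs were rarely hypo methylated, at 4 of 1650, and 37 of them were hyper methylated. In repeats the balance went the other way, with 31 hyper and 45 hypo methylated of 993. Of these 993 windows 41.0% were above 80% in saline-treated mice, where less room is left for a gain. The part of the level in this balance was not tested. In saline-treated mice 74.2% of the windows of over 40 CpGs were below 20%. A window with almost no methylation has no room for a loss of the size the rule requires. The low hypo methylated counts at or below 20% and over 40 CpGs thus cannot show that such windows were spared. Ikzf1 had the most hypo methylated windows of any gene and Agap2, which encodes a GTPase-activating protein, the most hyper methylated, both with 7.

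The largest gain was in Prxl2a, which encodes a redox protein of the peroxiredoxin-like family. Its window at chr14:41003501-41004500, over exon 3, was at 50, 41.6 and 57.8% in the saline-treated mice, 83.0, 79.5 and 76.3% in the OVA-induced mice and 65.4, 77.5, 54.5 and 68.3% in the DSE-treated mice. The OVA-induced mice were about 29.2 points higher from pooled calls, with an adjusted p of 0.0273 by limma. Windows were picked for display because the 2 groups do not overlap, so that property is no finding here.

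Glis2, a zinc-finger transcription factor gene, followed in its first intron (chr16:4596501-4597500), with 28.1, 29.8 and 44.0% in saline-treated and 60.8, 52.4 and 77.8% in OVA-induced mice. Its limma adjusted p was 0.0871, above the threshold of 0.05, and it rested on 50 to 88 calls per mouse. Cltb, which encodes a clathrin light chain, had 394 to 639 calls and a narrower spread. In its first intron (chr13:54608001-54609000) the saline-treated mice were at 30.9, 32.0 and 32.2%, the OVA-induced mice at 51.2, 59.4 and 58.6% and the DSE-treated mice at 48.3, 56.3, 40.2 and 56.2%. Its limma adjusted p was 0.0239 in OVA vs. saline. Amotl2, an angiomotin-family gene of cell junctions, had 13.0, 17.3 and 19.4% in saline-treated and 41.1, 38.7 and 40.9% in OVA-induced mice at chr9:102720001-102721000, over exon 2, with a limma adjusted p of 0.0198.

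The other 6 strongest gains were of 22.3 to 28.2 points. They lay in Carhsp1 (an RNA-binding protein, intron 1), Fam53b (intron 1), Bcl6b (a transcriptional repressor related to Bcl6, exon 3), Stard13 (a GTPase-activating protein, intron 1), Map4k3 (a kinase, intron 1) and Smco4 (intron 1). All 6 had a limma adjusted p below 0.05. Of the 10 windows, 7 lay in intron 1.

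The 10 windows with the largest losses lay in genes of varied roles. Arhgap25, which encodes a Rac-regulating protein of leukocytes, dropped in its first intron (chr6:87531001-87532000) from 76.9, 65.4 and 64.5% in saline-treated mice to 43.1, 39.2 and 42.0% in OVA-induced mice, and stood at 48.6, 32.6, 55.9 and 41.8% in DSE-treated mice. Its limma adjusted p was 0.0351 in OVA vs. saline, on 50 to 111 calls per mouse.

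Il17ra, the receptor for interleukin 17, had the most calls in its shallowest mouse of the 20 windows shown, with 1312 to 1665 calls over the mice. Its first intron (chr6:120466501-120467500) went from 70.8, 72.0 and 70.8% in saline-treated mice to 55.6, 44.1 and 45.02% in OVA-induced mice. The DSE-treated mice were at 50.5, 45.2, 51.9 and 42.8%, inside the range of the OVA-induced mice apart from the lowest one. Pooled calls fell by 23.2 points, with a limma adjusted p of 0.0217.

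Nfkbie, an inhibitor of NF-kappa-B, fell in its first intron (chr17:45557001-45558000) from 65.8, 81.9 and 73.3% to 55.4, 46.9 and 45.6%, and was at 45.7 to 52.0% in the DSE-treated mice. Mbnl1, a splicing regulator, fell in intron 2 (chr3:60474001-60475000) from 78.8, 79.1 and 76.4% to 59.1, 49.3 and 57.0%, and was at 50.3 to 59.5% in the DSE-treated mice. Both had a limma adjusted p below 0.05, at 0.0272 and 0.0204.

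The largest loss, in Trdmt1, belonged to a window with 1 CpG in the reference and 50 to 109 calls. This gene encodes a tRNA cytosine methyltransferase. The window, in intron 1 at chr2:13540001-13541000, was at 86.5, 81.4 and 80.5% in saline-treated mice, 55, 47.2 and 64% in OVA-induced mice and 77.1, 63.7, 69.9 and 69.4% in DSE-treated mice.

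Adam1a (a sperm protease gene, exon 1), Fndc5 (the irisin precursor, intron 4), 1700022N22Rik (exon 2) and Ikzf1 (intron 1) differed by -25.9 to -23.1 points. Ptbp3, an RNA-binding protein gene, fell by 23.0 points in a window with 3 CpGs (intron 2, chr4:59544001-59545000). It was at 45.5, 35.4 and 38.5% in saline-treated mice, 16.7, 14.7 and 19.6% in OVA-induced mice and 37.4, 34.5, 28.6 and 30.1% in DSE-treated mice. All 10 windows with the largest losses had a limma adjusted p below 0.05.

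**Figure D2:**
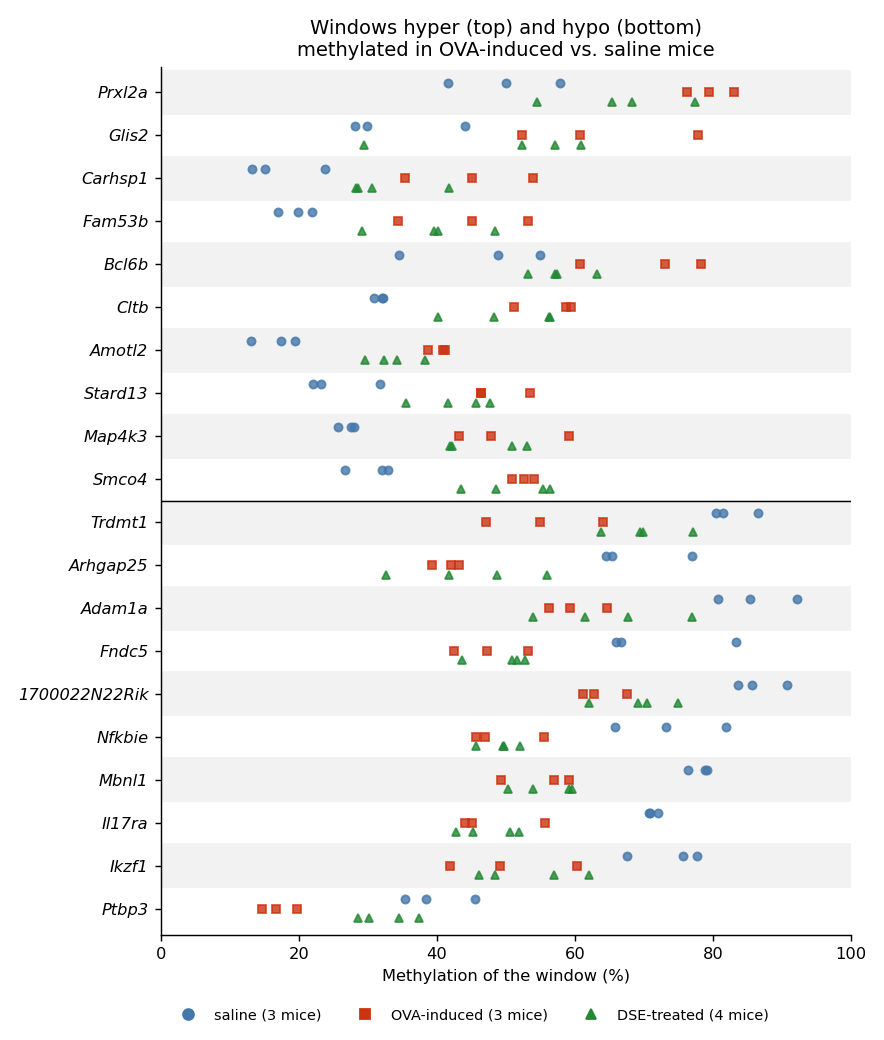
Methylation (%) in each mouse of the 10 windows with the largest gains (top) and the 10 with the largest losses (bottom) in OVA-induced vs. saline-treated mice, among called windows with no overlap between those groups and 50 calls or more per mouse, 1 per gene. Points are mice. DSE-treated mice lay near OVA-induced mice for Il17ra, Mbnl1 and Nfkbie, and for Ptbp3, at 28.6 to 37.4%, above all OVA-induced mice.

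Genes that mark cell types of the lung are described list by list, and no difference between lists was tested. Of 64 windows in 15 pan-leukocyte genes, 15 (23.4%) were hypo and 9 (14.1%) hyper methylated, both above the 3.20 and 5.51% over all windows past start sites, with a median difference of -2.71 points against 0.870 over all windows past start sites. The mean over those 64 windows was 54.3 to 55.1% in the saline-treated mice, 51.8 to 52.7% in the OVA-induced mice and 50.8 to 52.9% in the DSE-treated mice. By limma 12 were hypo and 6 hyper methylated.

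Losses were in Ikzf1 (7 of 10 windows), Cd48 (2 of 3), Runx1 (3 of 13), Hcls1, Fermt3 and Inpp5d. Ikzf1 encodes Ikaros, a transcription factor of lymphoid development. In its window at chr11:11688001-11689000 the saline-treated mice were at 67.6, 75.6 and 77.7%, the OVA-induced mice at 60.3, 49.1 and 41.9% and the DSE-treated mice at 62.0, 48.4, 57.0 and 46.0%. The loss had a limma adjusted p of 0.0431. Cd48, a surface receptor of leukocytes, went from 75.7, 76.8 and 73.3% to 64.2, 54.0 and 48.8% (limma adjusted p = 0.0237), and Hcls1, an actin regulator of blood cells, from 67.1, 72.9 and 70.0% to 53.2, 47.2 and 54.3% (limma adjusted p = 0.0223).

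Other leukocyte genes gained methylation or held no called window. Runx3, a transcription factor of T and natural killer cells, had 6 of 7 windows hyper methylated, with a median difference of 12 points. Runx1 had 3 windows in each direction, and its most changed one (intron 2) fell from 61.9, 67.8 and 63.1% to 52.2, 42.2 and 40.4%. No window of Spi1, which encodes the myeloid factor PU.1, was called, and its median difference over 7 windows was -4.31 points.

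Of 38 windows in 15 endothelial genes, 8 (21.1%) were hyper and 0 hypo methylated, against 5.51 and 3.20% over all windows past start sites. The median difference in endothelial windows was 1.53 points. Their mean was 35.8% ± 0.746 in saline-treated mice (n = 3), 39.7% ± 1.02 in OVA-induced mice (n = 3) and 40.0% ± 0.989 in DSE-treated mice (n = 4). By limma 1 window was called. It lay in the first intron of Kdr (chr5:75975001-75976000), the main receptor for vascular endothelial growth factor. The saline-treated mice were at 50.3, 44.9 and 46.0%, the OVA-induced mice at 56.4, 59.8 and 60.8% and the DSE-treated mice at 58.6, 60.7, 59.6 and 63.5%. The limma adjusted p was 0.0398. The other windows were 2 more in Kdr, 2 in Egfl7, and 1 each in Tie1, Prx and Pecam1. The calls in Tie1, Prx and Pecam1 were each lost without 1 mouse. Tie1 differed by 9.98 points without saline mouse 2, Prx by 9.99 without OVA mouse 3 and Pecam1 by 9.03 without saline mouse 3.

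Among the myeloid lists, Itgax, an integrin of macrophages and dendritic cells, held both hypo methylated windows (18.2%) of the 11 in macrophage genes. Its larger loss was from 60.7, 63.5 and 56.0% to 50.2, 35.7 and 34.8% (limma adjusted p = 0.0338). Prtn3, the neutrophil protease 3, held the only called window (4.55%) of 22 in neutrophil genes. It fell from 62.0, 62.7 and 59.8% to 49.2, 49.3 and 43.5% (limma adjusted p = 0.0303). Over all windows past start sites 5.51% were hyper and 3.20% hypo methylated. In the 29 windows of eosinophil and mast cell genes 5 (17.2%) were hyper and 3 (10.3%) hypo methylated. Epx, the eosinophil peroxidase, lost methylation in 2 of them. The larger loss was from 86.8, 86.1 and 86.3% to 70.5, 69.2 and 76.7%, with a limma adjusted p of 0.0223. Gata2 gained in 2, with 27.4, 27.2 and 26.4% in saline-treated and 35.2, 39.5 and 44.6% in OVA-induced mice at the larger. Siglecf, a receptor of eosinophils and alveolar macrophages, gained in 2. The limma adjusted p of its larger gain was 0.0823. Kit had 1 window in each direction, on 23 to 60 calls at the one with the larger difference.

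Among lymphocyte genes, Cd37, a tetraspanin of B cells, gained in 3 windows. At the most changed, with 2641 to 4139 calls, saline-treated mice were at 25.5, 23.2 and 29.4%, OVA-induced mice at 36.9, 42.4 and 43.9% and DSE-treated mice at 39.6, 43.8, 42.6 and 46.3%. The limma adjusted p was 0.0274 in OVA vs. saline. Cd79a, part of the B cell receptor, lost methylation, from 55.6, 57.0 and 60.3% to 48.1, 43.3 and 44.0%, with a limma adjusted p of 0.0361. Thus 3 (9.4%) of 32 windows in B cell genes were hyper and 1 (3.1%) hypo methylated. Over all windows past start sites the shares were 5.51 and 3.20%. In T cell genes 1 of 57 was hyper methylated (Zap70) and 1 hypo methylated (Thy1), or 1.75% each, neither past the limma threshold.

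In 73 windows of lung epithelium genes 6 (8.22%) were hyper and 4 (5.48%) hypo methylated. Over all windows past start sites the shares were 5.51 and 3.20%. Sftpb, a surfactant protein, lost methylation in 2 windows, in the larger case from 58.2, 58.2 and 56.1% to 48.7, 45.03 and 37.2% (limma adjusted p = 0.0490). Etv5, a transcription factor of alveolar type 2 cells, lost in 2 as well, while Pdpn, a marker of alveolar type 1 cells, gained in 3, Cdh1 in 2 and the lipid transporter gene Abca3 in 1. By limma 0 of the 6 hyper methylated windows and 1 of the 4 hypo methylated ones were called. Abca3 had a limma adjusted p of 0.0538, the more changed window of Etv5 one of 0.125 and the most changed of Pdpn one of 0.149. Of 53 smooth muscle and fibroblast windows 1 was hyper methylated, in the fibronectin gene Fn1, and 1 hypo methylated, or 1.89% each.

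The type 2 cytokine pathway, through which interleukins 4, 5 and 13 act in allergy, had 4 (6.06%) hyper and 1 (1.52%) hypo methylated of 66 windows. Over all windows past start sites the shares were 5.51 and 3.20%. Jak3, the kinase of the common gamma chain receptors, held 3 of the gains. At the largest (chr8:71679501-71680500) the saline-treated mice were at 41.8, 34.8 and 47.6%, the OVA-induced mice at 58.9, 52.1 and 67.1% and the DSE-treated mice at 60.6, 64.4, 65.6 and 63.4%. The limma adjusted p was 0.0493. Il4ra, the interleukin 4 receptor chain, gained 14.1 points in 1 of its 5 windows (limma adjusted p = 0.174). The median difference over those 5 windows was -3.96 points. Tyk2, another kinase of the pathway, fell by 10.7 points in 1 of its 4 windows (limma adjusted p = 0.0860), with a median of -10.3 points. The call in Il4ra was lost without saline mouse 2 (9.09 points), and that in Tyk2 without saline mouse 1 (-9.35), OVA mouse 2 (-9.58) or OVA mouse 3 (-9.45).

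Developmental transcription factor genes had 4 hyper and 0 hypo methylated of 366 windows. At a mean of 11.9% in saline-treated mice there was little room for a loss, so the 0 cannot show that these windows were spared. All 4 hyper methylated windows were in Hox genes. Hoxa5, which acts in lung development, had the clearest difference of them. On 4438 to 5941 calls, its window over exon 2 (chr6:52202501-52203500) was at 15.01, 14.4 and 16.9% in saline-treated mice, 29.7, 37.7 and 38.0% in OVA-induced mice and 33.5, 38.5, 32.5 and 40.1% in DSE-treated mice, with a limma adjusted p of 0.0198. Hoxb4 (1 window) and Hoxb3 (2 windows) were not called by limma. Of 69 windows in housekeeping genes 6 (8.70%) were hyper and 2 (2.90%) hypo methylated, against 5.51 and 3.20% over all windows past start sites. By limma 1 was hyper and 2 hypo methylated.

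Several of these calls lay close to the limits of the rule and were lost when 1 mouse was left out. Without OVA mouse 3, Zap70 differed by 9.62 points, Etv5 by -9.80, Hoxb4 by 8.63 and Thy1 by -8.29. Without OVA mouse 2, Fn1 differed by 9.55 and Hoxb3 by 7.75 points, and without OVA mouse 1 Siglecf by 9.50. Leaving out saline mouse 1 gave 8.67 points for Siglecf and 8.24 for Hoxb3, leaving out saline mouse 2 gave 9.05 for Zap70 and 9.78 for Hoxb4, and leaving out saline mouse 3 gave 9.43 for Fn1. Thy1 was also lost without OVA mouse 2 (-11.8 points, adjusted p = 0.0198 by the likelihood ratio test) or saline mouse 2 (-12.3). Pdpn was lost without OVA mouse 2, OVA mouse 3 or saline mouse 3, at 13.6 to 15.96 points. The Kit loss was not called without OVA mouse 1 (-10.4 points), OVA mouse 2 (-23.6), saline mouse 2 (-15.3) or saline mouse 3 (-21.2). Among housekeeping windows, Ppia was lost without OVA mouse 1 (8.35 points).

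Short sequence motifs of blood and lung transcription factors were unevenly spread over the called windows. They were searched on both strands of each window after the methylation values had been seen. GAGGAAGT, a form of the PU.1 site, was in 7.02% of all 31421 windows, 4.97% of the windows that gained methylation and 15.2% of those that lost it. Among the limma calls the shares were 4.81 and 16.7%, and in windows that do not overlap each other they were 7.10, 5.09 and 15.6%. TGTGGT, the core of the RUNX site, was in 55.7% of all, 51.7% of hyper and 64.4% of hypo methylated windows. TGANTCA, a looser form of the AP-1 site that allows any base in the middle, was in 24.96, 24.1 and 30.4%.

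TGTTTAC, a forkhead site, went the other way, in 12.6% of all, 17.3% of hyper and 11.4% of hypo methylated windows. GGGCGG, the GC box, was in 24.2, 24.2 and 18.3%. The median GC content was 47.8% over all, 48.3% in hyper and 46.5% in hypo methylated windows, and its part in these shares was not tested. A match is only a match of letters and does not show that a factor binds there.

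**Figure D3:**
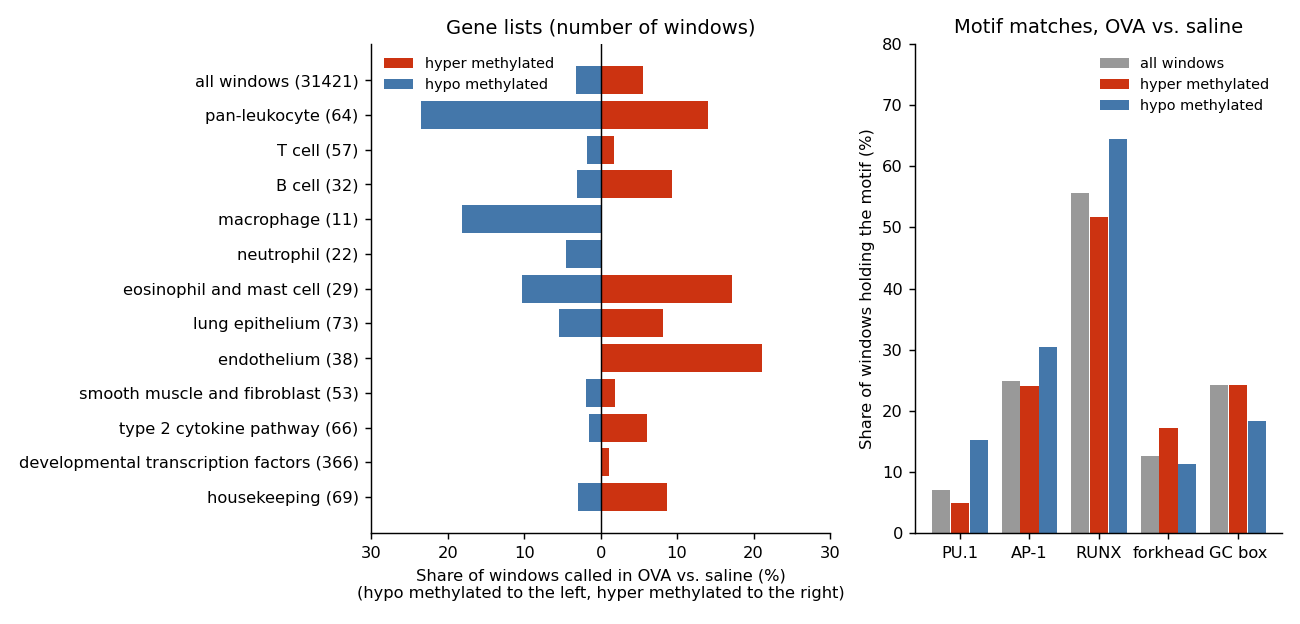
Left, share (%) of the windows of each gene list that were hypo methylated (leftwards) or hyper methylated (rightwards) in OVA-induced vs. saline-treated mice, with the number of windows in brackets. Over all windows 3.20% were hypo and 5.51% hyper methylated. The pan-leukocyte bars reach 23.4% on the hypo and 14.1% on the hyper side. Those of eosinophil and mast cell genes reach 10.3 and 17.2%. The endothelial bar reaches 21.1% on the hyper side, with 1 of these windows called by limma, and 0 on the hypo side. Right, share (%) of all, hyper and hypo methylated windows that hold each motif, with 15.2% of hypo methylated windows holding the PU.1 letters.

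The start sites of the same genes moved little. For 1560 hyper methylated windows with a measured start site, the median difference at that start site was 0.109 points. The start site was at least 10 points higher for 48 of these windows and lower for 14. For 898 hypo methylated windows the median was -0.164 points, with the start site higher for 9 windows and lower for 57. Over all 28031 windows with a measured start site the median was 0.0358 points, with the start site higher for 392 windows and lower for 270. These are counts of windows, and a start site shared by several windows counts more than once. Counted in this way, the few start sites that moved went to the side of the window more often than not. For 85.3% of hyper and 78.0% of hypo methylated windows the start site was at or below 20% in saline-treated mice. The median start site of the hypo methylated windows was at 3.80% in those mice. Such start sites have little room for a loss, so their small differences cannot show that they were spared.

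DSE vs. OVA asked whether treatment changed these regions in allergic mice. The mean over windows was 54.3, 55.5, 55.02 and 55.2% in the DSE-treated mice, overlapping the OVA-induced mice. The difference was -0.229 points (exact permutation p = 0.629, with 0.0571 the smallest that 4 against 3 can give). From pooled calls it was 1.502 points in the other direction (exact permutation p = 0.0571). Set against start sites, the difference was -0.711 points (exact permutation p = 0.0571, adjusted 0.21), and -0.331 points from pooled calls (exact permutation p = 0.171). The start-site windows themselves were higher in DSE-treated mice, by 0.482 points (exact permutation p = 0.171), and by 1.83 points from pooled calls (exact permutation p = 0.0571). By arithmetic the 0.482 points at start sites made up most of the -0.711 points. The mice of the 2 groups overlapped in that start-site mean, so a rise there is not established. The part of the unequal calls between libraries was not tested.

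By window, 203 (0.646%) were hyper and 208 (0.662%) hypo methylated in DSE-treated mice. Over all windows tested 0.898% were hyper and 0.725% hypo methylated, so neither share was above the background. By limma 28 were hyper and 12 hypo methylated, or 0.0891 and 0.0382%, against 0.158 and 0.0548% over all windows. With the F test 0 passed in either direction, while 2135 had an unadjusted p below 0.05 by that test and 2694 by limma.

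Windows called in this comparison often held an excess of calls in the DSE libraries, in both directions. The ratio of normalised calls, DSE over OVA, had a median of 1.06 over all windows past start sites, 1.71 in the hyper methylated windows and 1.45 in those hypo methylated. By limma the medians were 2.39 and 2.18. A ratio over 1.5 was found in 16.2% of all windows, 58.1% of those with gains and 48.6% of those with losses. Of the 5091 windows with such a ratio 4.30% were called in either direction, against 0.599% of the 21044 windows with a ratio of 0.8 to 1.25, where 59 were hyper and 67 hypo methylated. In OVA vs. saline the called share did not climb with the ratio, at 8.70% for ratios of 0.8 to 1.25 and 6.56% over 1.5. Only 122 windows had a ratio over 1.5 there, while 4860 had a ratio under 0.8, of which 8.99% were called. Under 0.8 the hyper methylated share was 5.10% and the hypo methylated share 3.89%, against 5.62 and 3.08% at 0.8 to 1.25. In DSE vs. saline it was 8.89% at ratios of 0.8 to 1.25, 10.7% at 1.25 to 1.5 and 12.6% over 1.5. The windows called in DSE vs. OVA were also poorer in GC, with medians of 43.1% (hyper) and 44.4% (hypo) against 47.8% over all. The part of the unequal calls in these differences was not tested.

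**Figure D4:**
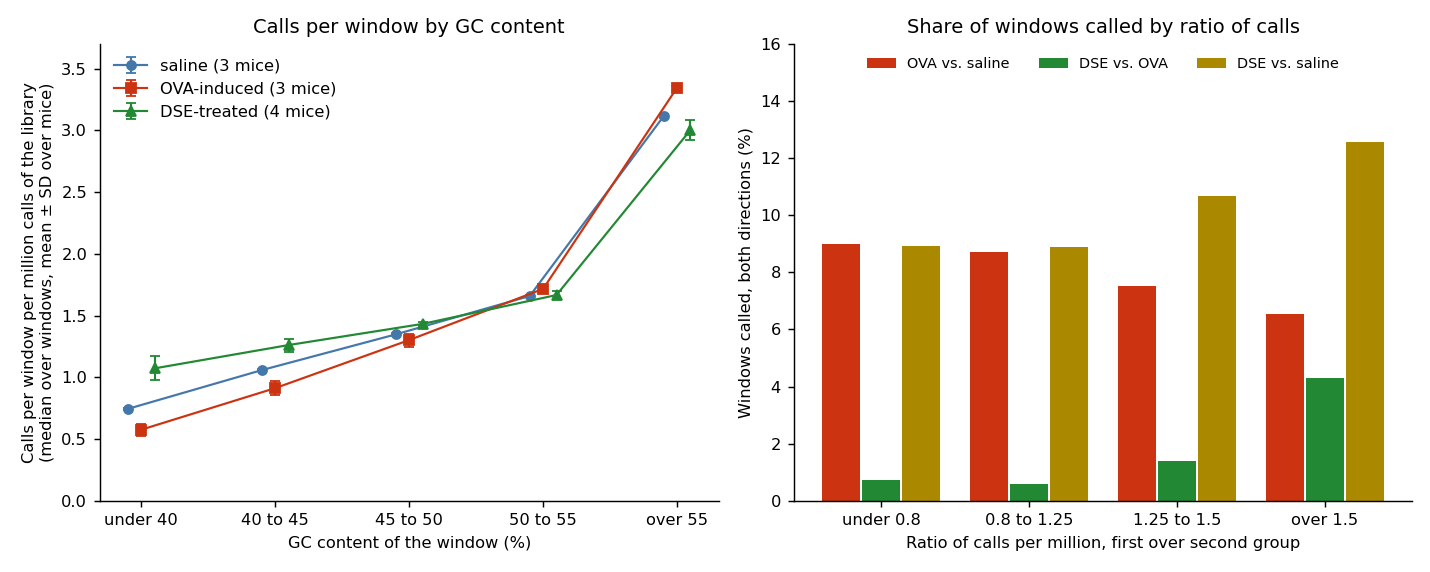
Left, CpG calls per window per 1000000 calls of the library (median over windows, mean ± SD over mice) by GC content of the window, for the 3 groups. DSE libraries held 1.07 and OVA libraries 0.576 in windows under 40% GC. Right, share (%) of windows called in either direction by the ratio of normalised calls between the groups compared. In DSE vs. OVA it was 0.599% at ratios of 0.8 to 1.25 and 4.30% over 1.5.

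Each window with the largest DSE vs. OVA difference held more normalised calls in the DSE libraries, with a ratio of 1.45 to 3.80. The largest gain was in the first intron of Arid1a (chr4:133749501-133750500), a subunit of the SWI/SNF chromatin remodelling complex. The DSE-treated mice were at 50.2, 41.8, 48.6 and 48.5%, the OVA-induced mice at 17.5, 15.9 and 9.21% and the saline-treated mice at 34.8, 26.5 and 40.3%. The DSE libraries held 291, 299, 220 and 359 calls here and the OVA libraries 114, 88 and 76, a ratio of 3.10 after normalisation. The limma adjusted p was 0.0141.

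The non-coding gene Gm30933 had the highest ratio, 3.80. In its first intron (chr9:30422501-30423500) the DSE-treated mice were at 51.2, 51.2, 46.5 and 51.9%, the OVA-induced mice at 16.3, 19.9 and 17.04% and the saline-treated mice at 16.3, 26.6 and 31.1% (limma adjusted p = 0.0143). Hipk3, a protein kinase gene, was at 36.3, 22.5, 36.2 and 19.5% in DSE-treated mice, 1.75, 1.105 and 5.04% in OVA-induced mice and 2.96, 14.2 and 8.59% in saline-treated mice, with a ratio of 3.09 (limma adjusted p = 0.0314). In these windows the DSE-treated mice lay beyond both other groups, saline included.

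4921504A21Rik, Asph (a hydroxylase gene) and Twistnb (a subunit of RNA polymerase I) gained 27.6, 27.2 and 23.7 points, with ratios of 2.46, 2.67 and 1.501. The limma adjusted p was below 0.05 for each.

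Of the losses, Pctp, a phosphatidylcholine transfer protein, had the lowest limma adjusted p, 0.0141. It was at 60.6, 68.2, 56.0 and 67.8% in DSE-treated mice, 86.0, 85.0 and 89.5% in OVA-induced mice and 83.7, 80.9 and 82.5% in saline-treated mice, with a ratio of calls of 2.11. Pdk1, a kinase that holds back pyruvate dehydrogenase, showed the largest loss. It was at 51.2, 61.0, 54.2 and 75.8% in DSE-treated mice, 84.9, 86.5 and 80.4% in OVA-induced mice and 81.6, 83.1 and 79.1% in saline-treated mice, and the limma adjusted p of 0.0704 missed the threshold. Its ratio, 1.45, was the lowest of the 12.

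Slc7a8, an amino acid transporter gene, was at 41.0, 40.7, 42.5 and 50.4% against 58.1, 63.2 and 68.2% in OVA-induced mice (limma adjusted p = 0.0382, ratio 2.26). The non-coding gene Gm15543, Osgin2 and Top3a (a topoisomerase gene) fell by 24.4, 22.3 and 20.4 points, with limma adjusted p from 0.0740 to 0.312.

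**Figure D5:**
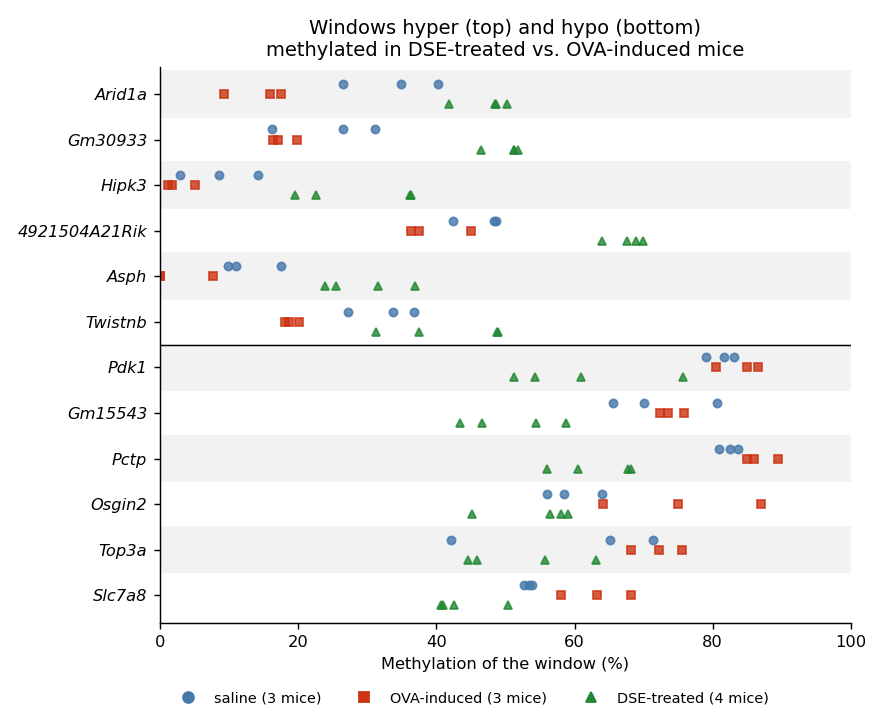
Methylation (%) in each mouse of the 6 windows with the largest gains (top) and the 6 with the largest losses (bottom) in DSE-treated vs. OVA-induced mice, among called windows with no overlap between those groups and 50 calls or more per mouse, 1 per gene. Points are mice. In Gm30933 the DSE-treated mice lay at 46.5 to 51.9%, above all saline-treated mice as well, while for Osgin2 they overlapped the saline-treated mice.

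Some windows that had changed in OVA-induced mice were called in the opposite direction in DSE vs. OVA. Both comparisons share the OVA-induced mice, so a chance deviation of those mice gives opposite differences. Of the 20 windows with the largest OVA vs. saline differences, 5 were called in this way, in Prxl2a, Carhsp1, Bcl6b, Trdmt1 and Ptbp3. Prxl2a differed by 29.2 points in the first comparison and -12.7 in the second, Carhsp1 by 28.2 and -14.7, and Bcl6b by 24.8 and -12.9. Trdmt1 differed by -27.6 and 15 points, and Ptbp3 by -23.0 and 16.2. By limma only Ptbp3 of these passed in DSE vs. OVA, with an adjusted p of 0.0476 and a ratio of calls of 2.41.

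Of the gene lists, none had more than 1 window called per direction in DSE vs. OVA. In the 64 pan-leukocyte windows 1 (1.56%) was hypo and 0 hyper methylated. Over all windows past start sites only 0.662% were hypo and 0.646% hyper methylated. At such shares lists of this size hold few calls in any case, so these counts cannot show that DSE left the lists unchanged. The mean of pan-leukocyte windows was 52.1% ± 0.530 under OVA (n = 3) and 51.6% ± 0.900 with DSE added (n = 4), and that of endothelial windows 39.7% ± 1.02 and 40.0% ± 0.989. Both differences were smaller than the spread between mice.

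DSE vs. saline asked how far allergic mice given DSE stood from mice without allergy. The mean was 0.923 points higher in DSE-treated mice (exact permutation p = 0.114), and 2.19 points higher from pooled calls (exact permutation p = 0.0571). Against start sites the difference was -0.0306 points (exact permutation p = 0.857), and 0.467 from pooled calls (exact permutation p = 0.171). By window 1728 (5.50%) were hyper and 1211 (3.85%) hypo methylated, against 4.95 and 3.07% over all windows. The hypo methylated share was 3.42% in windows with a ratio of calls of 0.8 to 1.25 and 6.75% in those over 1.5, while the hyper methylated share was 5.47 and 5.82%. The part of the unequal calls in these counts was not tested. By limma 1026 and 802 were called, or 3.27 and 2.55%, against 2.76 and 1.94%. With the F test 0 passed, while 7757 had an unadjusted p below 0.05 by that test and 8730 by limma.

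This comparison shares the saline-treated mice with OVA vs. saline, so its values are not independent of those above. Of 64 pan-leukocyte windows 16 (25%) were hypo and 6 (9.4%) hyper methylated, with 13 and 6 called by limma. Of 38 endothelial windows 7 (18.4%) were hyper and 0 hypo methylated, with 5 and 0 called by limma. Over all windows past start sites 3.85% were hypo and 5.50% hyper methylated. The PU.1 letters were in 14.8% of the hypo and 4.57% of the hyper methylated windows, and the forkhead letters in 10.1 and 16.6%. For Il17ra the pooled difference was -23.7 points (limma adjusted p = 0.00974), for Mbnl1 -21.9 points (limma adjusted p = 0.00877), for Hoxa5 20.7 points (limma adjusted p = 0.00791) and for Jak3 21.4 points (limma adjusted p = 0.0163).

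Most windows varied little between mice of a group. The median SD between saline-treated mice was 2.39 points, against 1.88 points from counting error alone. For partly methylated windows (20 to 80%) it was 2.96 against 2.18 points. The range between the 3 saline-treated mice exceeded 20 points in 628 windows (2.00%), and in 739 (2.35%) between the 3 OVA-induced mice. Of the 5 widest, 1810024B03Rik was at 32.2, 21.9 and 71.7% in the OVA-induced mice, and the tumour suppressor gene Men1 at 65.9, 18.9 and 43.7%. Rab27a, a regulator of granule secretion, was at 38.7, 84.8 and 48.6% in the OVA-induced mice, and Cyp2u1, a cytochrome P450 gene, at 0, 40.5 and 34.5%. Ahi1, a gene of the primary cilium, was at 60.9, 11.2, 40.3 and 45.8% in the DSE-treated mice. Of these 5 windows none was called in any comparison.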

How the data were processed

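Lung DNA of 10 mice was profiled. Per the labels, reads were trimmed with cutadapt 1.10, aligned to mm10 with Bismark 0.19.0 and summarised with methylKit 1.0.0. The study's methods name the SureSelect Methyl-seq capture. The deposited table gives, for each window of 1000 bp at steps of 500 bp, whole-number counts of methylated and unmethylated calls per mouse. The methylation level is methylated over all calls. Probes favour CpG-rich and regulatory DNA, and neighbouring windows share calls.

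Groups were taken from the labels, and n is the number of mice. Windows were placed with RefSeq transcripts of GRCm38, each assigned to the gene with the nearest qualifying start site. Windows with at least 20 calls in at least 2 mice per group were tested by a likelihood ratio test of a logistic model on summed calls, and p-values were adjusted (Benjamini-Hochberg) over all windows. Alternatives were limma 3.58.1 on logit values (pseudocount 1, adjusted p under 0.05 and 10 points), an overdispersion F test, a replicate block, scaled calls and leaving out each mouse. The F test kept the main thresholds, an adjusted p under 0.01 and 10 points. limma tested windows with 20 calls in all 10 mice. Single values were compared by two-sided exact permutation tests. Python 3.11.15 (statsmodels 0.14.6, SciPy 1.17.1, numpy 2.4.6, pandas 2.3.3) and R 4.3.3 were used, and the tests were tried on simulated data.

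The windows and gene lists were chosen with earlier results of these data known. Named genes were the 10 (OVA vs. saline) or 6 (DSE vs. OVA) largest differences per direction among called windows with at least 50 calls per mouse and no overlap between groups, up to 4 called windows per gene list, the 8 genes with most windows under 10%, and the 5 widest ranges. Ikzf1, Kdr and other genes given by count only were added after their values were seen. Genes on 1 chromosome were counted and not named, and some named-gene results are not reported here.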

Additional observations from a re-analysis of the deposited data

Results flagged for a closer look

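A value far from the rest of its group was found in 8 of 96 values tested, all in the DSE-treated group, the only one with enough mice for Dixon's test. Chance alone gives about 1 in 20. The far-minus-near difference along the gene was 7.50 points in DSE mouse 1 and 7.71 to 7.72 in the others. The window in Gm30933 was at 46.5% in DSE mouse 3 against 51.2 to 51.9%. DSE mouse 1 was high at Hcls1, at 56.3% against 50 to 50.9%. DSE mouse 4 was high at Prx, at 58.0% against 46.8 to 48.7%, and at Il4ra, at 67.2% against 49.8 to 52.5%. DSE mouse 2 was low at Tyk2, at 62.3% against 73.6 to 75.5%, and high at Psmb2, at 47.9% against 41.7 to 42.4%. At Ppia, DSE mouse 3 was at 17.9% against 12.1 to 12.7%. No single mouse accounted for all 8.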

How the results depend on the processing

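The counts of called windows differed with the test, and fewer passed where the spread between mice was used. The thresholds differ too, at an adjusted p under 0.05 for limma and under 0.01 for the F test. Counts are given as hyper and hypo methylated. The main counts were 1731 and 1004 (OVA vs. saline), 203 and 208 (DSE vs. OVA), and 1728 and 1211 (DSE vs. saline). In the same order limma called 728 and 497, 28 and 12, and 1026 and 802. The F test called 0 in all 3 comparisons, with 5966, 2135 and 7757 windows at an unadjusted p under 0.05. Requiring 20 points left 76 and 71, 18 and 23, and 76 and 74. Windows that do not overlap gave 864 and 493, 102 and 106, and 860 and 591, and midpoints of 2500 to 5000 bp gave 1019 and 589, 118 and 119, and 1002 and 694, since both use fewer windows. Within ratios of calls of 0.8 to 1.25, an alternative added after seeing the data, DSE vs. OVA kept 59 and 67. Leaving out a mouse gave 1527 to 2249 and 894 to 1188, 179 to 245 and 175 to 245, and 1542 to 2068 and 1094 to 1378.

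The DSE minus OVA mean turned from -0.229 to 1.502 with pooled calls and to 0.0174 without DSE mouse 1. The DSE minus saline difference against start sites (-0.0306) turned to 0.467 with pooled calls, 0.107 without DSE mouse 1 and 0.0581 without saline mouse 1. The DSE minus saline change with distance (0.00831) turned to -0.524 with pooled calls. The cause was not tested. Leaving out a mouse, the mean differences ranged from 0.992 to 1.39, -0.463 to 0.0174 and 0.754 to 1.17 points, and those against start sites from 0.592 to 0.769, -0.802 to -0.573 and -0.122 to 0.107.

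Mice shared only a replicate number, with correlations of their deviations of -0.0273 to 0.0785 over 9 pairs, and 3 of 9 mice correlated best with their own number. With the replicate block the logistic model called 1731 and 1006, 179 and 191, and 1654 and 1160 windows, and limma with the replicate block called 0 in every comparison. Of 64 tests of named windows, 42 kept their call by limma, 0 by the F test or limma with the block and 64 by the logistic model with the block, and 366 of 396 kept it without 1 mouse. The median SD from counting alone was 1.88 points, against 2.39 between saline-treated mice, so depth limits what a single window can show.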
